A study of Mus musculus with 79 samples.

Results

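Striatal marker genes were followed in punches of the medial prefrontal cortex (mPFC) and the ventral hippocampus (vHipp). The group held 9 genes, chosen by symbol and matched to the gene identifiers of the count table, which holds 55471 identifiers. They were Rgs9, Drd1, Drd2, Ppp1r1b, Adora2a, Tac1, Pde10a, Foxp1 and Scn4b, and all 9 passed the filter on low counts in both regions. The question behind the choice was whether the level of Rgs9 in these punches followed the amount of striatal tissue in them.

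The tissue came from 40 wild-type male CD-1 mice of 9 to 10 weeks, housed in groups of 4. The CTRL mice were kept without defeat, and the CSDS mice went through 21 days of chronic social defeat stress, a daily attack by an unfamiliar aggressive male. Within each, mice received saline or a single dose of ketamine (10 mg/kg), an NMDA receptor antagonist, and tissue was taken 7 days after the injection. RNA of 1 mm punches gave 79 libraries, with 10 mice in each of the 4 groups and in each region, except that the CSDS ketamine group had 9 libraries in the mPFC, since mouse 5 had a vHipp library and no mPFC library here. Total counts were between 11726129 and 41767119 per library, with a median of 19638060. The housing groups were not in the labels used here, so mice that shared a cage could not be told apart from mice that did not.

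Medium spiny neurons make up most of the striatum and fall into 2 classes. Those of the direct pathway carry the dopamine receptor Drd1 and the neuropeptide precursor Tac1, and those of the indirect pathway carry the dopamine receptor Drd2 and the adenosine receptor Adora2a. Both use Rgs9, whose striatal splice form speeds the end of G protein signaling downstream of dopamine and opioid receptors, Ppp1r1b (DARPP-32), a phosphatase inhibitor switched by protein kinase A, and Pde10a, a cyclic nucleotide phosphodiesterase. Foxp1, a transcription factor, and Scn4b, an accessory subunit of sodium channels, are also abundant there. None of these genes is restricted to the striatum. Drd1 and Foxp1 are known in deep layers of the cortex, and Drd2, Scn4b and Pde10a in neurons of the cortex or hippocampus. In bulk tissue, fewer cells of a type and less RNA per cell cannot be told apart.

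The annotated gene of Rgs9 covers chr11:109225355-109298129 on the minus strand of GRCm38. Drd2, at chr9:49340627-49408177 on the plus strand, was the striatal marker most correlated with Rgs9 in the mPFC. The 250 bases before the transcription start of each are shown because these genes moved together across libraries in both regions. The windows come from a table of RefSeq promoters (GRCm38.p6), in which 7 of the 9 genes were matched, and lie at chr11:109298182-109298431 (minus strand) and chr9:49340153-49340402 (plus strand). Capitals mark matches, on either strand, to 5 short motifs: the GC box GGGCGG, the TATA box TATAAA, the E-box CACGTG, the cyclic AMP response element TGACGTCA and its shorter core TGACG.

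Rgs9: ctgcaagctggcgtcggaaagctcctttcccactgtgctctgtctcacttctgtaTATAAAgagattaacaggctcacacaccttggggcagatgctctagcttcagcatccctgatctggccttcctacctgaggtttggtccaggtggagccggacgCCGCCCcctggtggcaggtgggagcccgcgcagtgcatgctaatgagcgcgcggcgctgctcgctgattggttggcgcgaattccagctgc
Drd2: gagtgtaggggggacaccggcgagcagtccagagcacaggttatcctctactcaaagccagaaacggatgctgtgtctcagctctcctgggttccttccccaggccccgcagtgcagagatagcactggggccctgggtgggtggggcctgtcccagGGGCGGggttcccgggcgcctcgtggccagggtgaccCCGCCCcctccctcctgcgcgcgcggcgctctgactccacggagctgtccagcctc

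The Rgs9 window held 1 GC box and 1 TATA box, and the Drd2 window held 2 GC boxes. No other of the 5 motifs was in either window. Among all 32851 windows of this length, 32.7% held a GC box, 12.4% a TATA box, 6.02% an E-box, 1.55% the full response element and 17.8% the shorter core, so the letters shared by the pair are common ones.

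To place the markers on a common scale, levels were taken as CPM, that is counts scaled by library size with TMM factors over the 79 libraries, and divided by exon length in kb. In the mPFC, Ppp1r1b was highest at 14.7 ± 2.33 CPM per kb (SD, n = 39). Foxp1 followed at 6.92 ± 0.83, Pde10a at 6.10 ± 0.667 and Scn4b at 4.37 ± 1.39 CPM per kb. Drd1 stood at 2.81 ± 0.873, Tac1 at 2.79 ± 1.13 and Rgs9 at 1.64 ± 0.678 CPM per kb. Drd2 and Adora2a, the receptors of the indirect pathway, were lowest, at 0.617 ± 0.323 and 0.614 ± 0.252 CPM per kb. Foxp1 and Pde10a, Drd1 and Tac1, and Drd2 and Adora2a were closer to each other than the larger SD of the pair.

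In the vHipp, Ppp1r1b was again highest, at 12.6 ± 3.24 CPM per kb (SD, n = 40), and Adora2a lowest, at 0.456 ± 0.263 CPM per kb. Pde10a stood at 6.76 ± 0.816, Scn4b at 5.43 ± 2.42 and Foxp1 at 3.77 ± 0.957 CPM per kb. Drd2, Drd1, Rgs9 and Tac1 lay close together, at 1.53 ± 0.751, 1.40 ± 0.39, 1.35 ± 0.531 and 1.26 ± 0.567 CPM per kb. Each of these neighbors, and each step from Pde10a to Foxp1, differed by less than the larger SD of the pair.

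The markers differed in how much they varied between libraries of a region. Pde10a had the smallest spread, with an SD of 10.9% of its mean in the mPFC and 12.1% in the vHipp. Rgs9 varied by 41.2% and 39.4%, Tac1 by 40.5% and 44.96%, and Drd2 by 52.4% and 49.01%. Adora2a varied by 40.96% in the mPFC and by 57.7% in the vHipp. The lowest count in a library was 8 for Drd2, in the mPFC, and 10 for Adora2a, in the vHipp, so single values of both genes carry large counting errors.

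**Figure D1:**
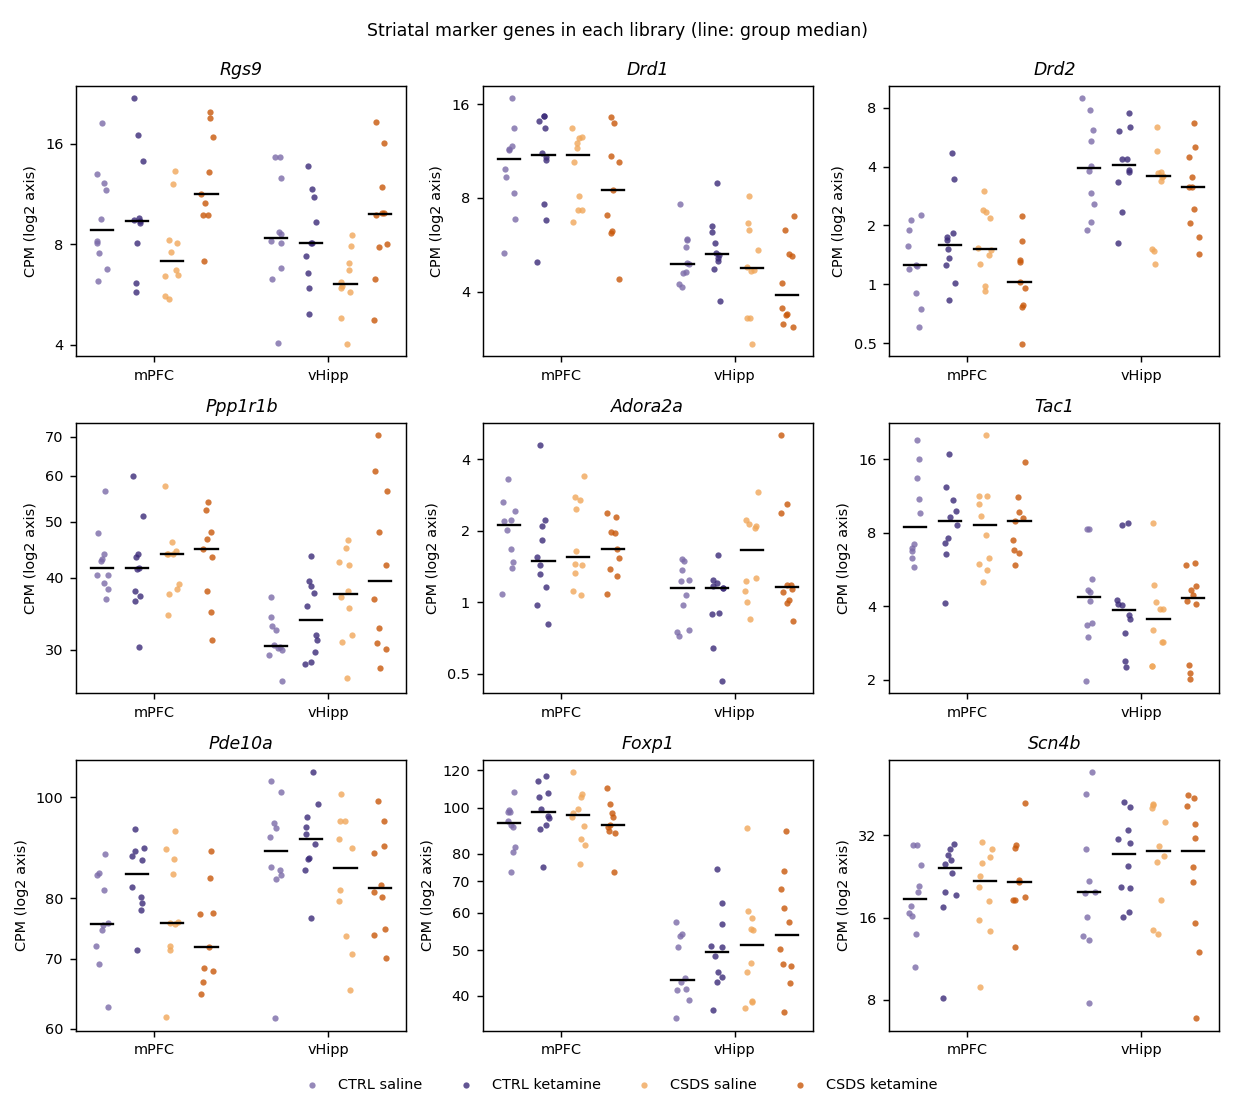
CPM of each striatal marker gene in every library (log2 axis), by region and group, with the group median as a line. Groups overlap for each gene, and the step between regions is clearest for Foxp1, Drd1, Tac1 and Drd2.

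To compare the regions, edgeR's quasi-likelihood test was run over all genes, with Benjamini-Hochberg adjustment. Of the 9 markers, 6 were higher in the mPFC and 3 lower, while 24.5% of all genes tested were higher in the mPFC and 24.4% were lower. The median log2 fold change (LFC) was 0.30 over the markers and -0.0003 over all genes. Members of the same neuron class went opposite ways. Drd2 was lower in the mPFC (1.57 ± 0.824 against 3.91 ± 1.91 CPM, SD), with an LFC of -1.34 (SE 0.15, adjusted p = 1.7e-12). Adora2a, which marks the same indirect-pathway neurons in the striatum, was higher in the mPFC (1.88 ± 0.77 against 1.40 ± 0.806 CPM), with an LFC of 0.47 (SE 0.13, adjusted p = 0.00173).

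Tac1 had an LFC of 1.15 (SE 0.13), Drd1 of 1.00 (SE 0.10) and Foxp1 of 0.88 (SE 0.06), all higher in the mPFC, and the largest of their adjusted p-values was 1.54e-12. Rgs9 was higher in the mPFC by an LFC of 0.30 (SE 0.11, adjusted p = 0.0204), with 10.5 ± 4.33 CPM against 8.62 ± 3.39 CPM. Ppp1r1b differed by 0.24 (SE 0.06) and Pde10a by -0.15 (SE 0.04). Scn4b was lower in the mPFC by an LFC of -0.31 (SE 0.13, adjusted p = 0.0396), a call that was lost with the mouse as a replicate block (LFC -0.23, adjusted p = 0.103), and under 2 other settings. Blocking by mouse left the other 8 markers past the threshold, with Rgs9 at 0.28 (SE 0.06).

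A second list of 13 striatal genes outside these 9 was used as a measure of striatal tissue. It did not move as a unit between regions either, with 7 genes higher in the mPFC, 4 lower and a median LFC of 0.35. Lrrc10b had a median of 2.39 CPM in the mPFC and 49.3 CPM in the vHipp. Other genes of the list, named here as defining markers after their values were seen, were near 0. Six3, a transcription factor of striatal precursors, had a median of 0.413 CPM in the mPFC, Gpr6 1.23 CPM and Isl1 0.0441 CPM, with 17 of 39 libraries at 0 counts for Isl1. In the vHipp, Six3 had a median of 0.434 CPM, Gpr6 0.524 CPM, and Isl1 was at 0 counts in 26 of 40 libraries. The summed level of the list ran from 105.8 to 162.6 CPM in the mPFC and from 117.2 to 210.5 CPM in the vHipp.

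The group ranges of the summed striatal list overlapped throughout. In the mPFC its medians were 120.6 CPM for CTRL saline, 120.9 for CTRL ketamine, 125.9 for CSDS saline and 126.7 for CSDS ketamine. In the vHipp they were 160.3, 165.4, 161.2 and 159.0 CPM in the same order.

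To ask whether Rgs9 moved with the other markers, log2 CPM was compared across libraries within a region after removing the group means, with 100000 permutations within groups and adjustment over all genes. There were 8 markers in each region, hence 16 relations. Rgs9 rose and fell with both dopamine receptors. With Drd1, r was 0.54 in the mPFC (permutation p = 0.0009; rho 0.51, p = 0.00179; n = 39) and 0.52 in the vHipp (permutation p = 0.00041; rho 0.47, p = 0.00265; n = 40). With Drd2, r was 0.62 in the mPFC (permutation p = 0.00011; rho 0.67, p = 5e-05) and 0.43 in the vHipp (permutation p = 0.00767; rho 0.44, p = 0.00577). Leaving out the 2 libraries farthest from the median of Rgs9 left r at 0.48 and 0.47 for Drd1 and at 0.67 and 0.49 for Drd2.

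These relations did not pass the adjustment over all genes, with adjusted p of 0.184 and 0.113 for Drd1 and of 0.168 and 0.17 for Drd2. Few genes did. In the mPFC 0.0069% of all genes tested were called with a positive r to Rgs9 and 0.0138% with a negative one, and in the vHipp these shares were 0.0207% and 0.00345%. Within the groups, r of Rgs9 with Drd1 was between 0.41 and 0.77 in all 8 groups. With Drd2 it was between 0.46 and 0.85 in 7 groups and -0.14 in the vHipp of ketamine-treated CSDS mice.

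Adora2a, the receptor of the same neurons as Drd2 in the striatum, had no positive relation to Rgs9 that held in both regions. Its r was -0.36 in the mPFC (permutation p = 0.0387, rho -0.36, p = 0.0313, adjusted p = 0.436) and 0.06 in the vHipp (permutation p = 0.734, rho -0.16, p = 0.334). Within groups, r was between -0.75 and -0.23 in 7 of the 8, and 0.74 in the vHipp of ketamine-treated CSDS mice, the group of mouse 17. In the vHipp, mouse 17 had the highest library for both genes, with 18.6 CPM of Rgs9 and 5.05 CPM of Adora2a. Without the 2 libraries farthest from the median of Rgs9, r was -0.33 in the mPFC and -0.29 in the vHipp, and without mouse 17 alone it was -0.15 in the vHipp. Tac1 had an r of 0.21 in the mPFC and 0.36 in the vHipp (permutation p = 0.219 and 0.0314). The 4 remaining markers had values between -0.15 and 0.28, each with a permutation p of at least 0.106.

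With the summed striatal list, Rgs9 had an r of -0.18 in the mPFC (permutation p = 0.283, rho -0.15, p = 0.366) and 0.18 in the vHipp (permutation p = 0.288, rho 0.18, p = 0.277). Without the 2 libraries farthest from the median of the list, r was -0.15 and 0.13. The share of all genes called with this list was 0.542% in the mPFC and 1.6% in the vHipp. Drd1 in the vHipp was the one marker of the 9 that passed with it, at an r of 0.58 (permutation p = 0.00039, rho 0.50, p = 0.0024, adjusted p = 0.0344), and in the mPFC the r of Drd1 was -0.35 (permutation p = 0.0346, adjusted p = 0.278). Holding the striatal list constant left the partial r of Rgs9 at 0.52 with Drd1 and 0.65 with Drd2 in the mPFC, and at 0.51 and 0.42 in the vHipp.

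**Figure D2:**
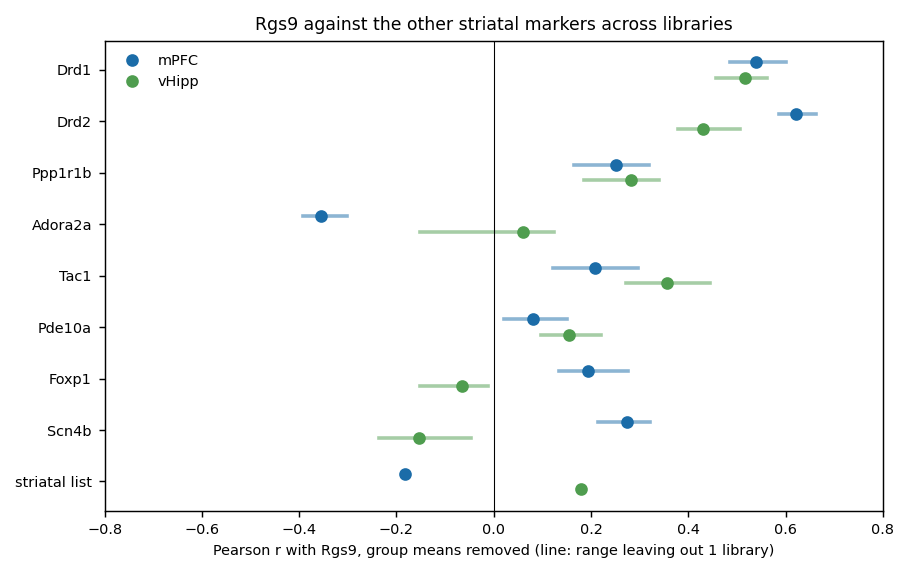
Pearson r of Rgs9 with each other marker and with the summed striatal list across 39 mPFC and 40 vHipp libraries, after removal of group means. Lines span the values with 1 library left out. Drd1 and Drd2 were positive in both regions, and Adora2a and the striatal list were on either side of 0.

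The genes whose pattern was most like that of Rgs9, among genes with a mean of at least 1 CPM, were taken by r. In the mPFC they were Gm10516 (r = 0.70), Ccna2 (0.68), Skap1 (0.66), Srp72 (0.64) and Drd2 (0.62), over 39 libraries, and the first pair passed the adjustment (permutation, adjusted p = 0.0483). In the vHipp they were Ppp1r16b (0.73), E330034L11Rik (0.72), Pard3b (0.72), Entpd2 (0.69) and Fzd5 (0.68), over 40 libraries, all with an adjusted p of 0.0414 by permutation. Drd2 was the one striatal marker among these 10.

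The markers were then compared with lists for tissue next to, or inside, the punches. In the mPFC the list of deep cortical layers (7 genes such as Tbr1, Tle4 and Foxp2) tracked 4 of the 9 markers. Its summed level ran from 211 to 532 CPM. Drd1 rose with it at an r of 0.81 (permutation p = 1e-05, the smallest that the permutations could give; rho 0.86, p = 1e-05; adjusted p = 0.000579). Scn4b had an r of 0.70, Foxp1 of 0.58 and Drd2 of 0.55, with adjusted p of 0.00113, 0.00404 and 0.00874 and rho of 0.52, 0.45 and 0.57. The same list passed with 14.1% of all genes, so 4 of 9 is to be read against that share.

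The upper cortical layers went the other way. Drd1 had an r of -0.69, Drd2 of -0.55 and Tac1 of -0.49 with them in the mPFC (adjusted p = 0.00238, 0.0331 and 0.0495), where 3.21% of all genes were called. With the hippocampal list, which had a median sum of 364 CPM in the mPFC, Scn4b had an r of -0.67, Drd1 of -0.59, Foxp1 of -0.55 and Drd2 of -0.48, against 11.6% of all genes called. Tac1 rose with the dopaminergic list (r = 0.62, with 1.89% of all genes called) and with the oligodendrocyte list (r = 0.54, with 5.28% called). The oligodendrocyte genes summed to between 567 and 6369 CPM over the mPFC libraries. A list of 24 genes of medium spiny neuron signaling, most of them also used by other neurons, passed with Foxp1 (r = 0.65), Drd2 (0.51) and Drd1 (0.44), against 9.81% of all genes.

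In the vHipp other lists stood out. Foxp1 rose with the septal list (4 genes) at an r of 0.73 (rho 0.67, adjusted p = 0.000909), where 7.68% of all genes were called. That list was led by Trpc4, with a median of 47.6 CPM in the vHipp and 15.5 CPM in the mPFC. Zic1 and Zic4 had vHipp medians of 6.82 and 1.46 CPM, so its sum there need not reflect septal tissue. Pde10a rose with the hippocampal list (r = 0.66, rho 0.64, with 9.93% of all genes called) and with the signaling list (r = 0.49). Ppp1r1b rose with the oligodendrocyte list (r = 0.55, rho 0.58, with 3.19% called) and fell with the signaling list (r = -0.64, rho -0.63, with 19.0% called). Drd1 and Drd2 rose with the upper layer list (r = 0.56 and 0.53, with 2.82% called), the opposite sign to the mPFC, and Scn4b rose with the deep layer list (r = 0.50, with 10.5% called).

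Rgs9 passed with none of the 12 lists. With the lists of cholinergic neurons and choroid plexus in both regions, Pvalb interneurons in the mPFC and thalamus in the vHipp, no gene at all passed, so these say nothing about the markers. Its strongest values in the mPFC were -0.50 with the upper layers (permutation p = 0.00293, adjusted p = 0.0713) and 0.40 with the deep layers (permutation p = 0.015, adjusted p = 0.0848). In the vHipp they were -0.30 with the deep layers and 0.32 with both the dopaminergic and the upper layer list. Holding the deep layer list constant took the r of Rgs9 with Drd1 in the mPFC from 0.54 to 0.40 and that with Drd2 from 0.62 to 0.52. Holding the upper layer list took them to 0.31 and 0.48. The part of layer content in the relation of Rgs9 to the dopamine receptors was not tested beyond these values.

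**Figure D3:**
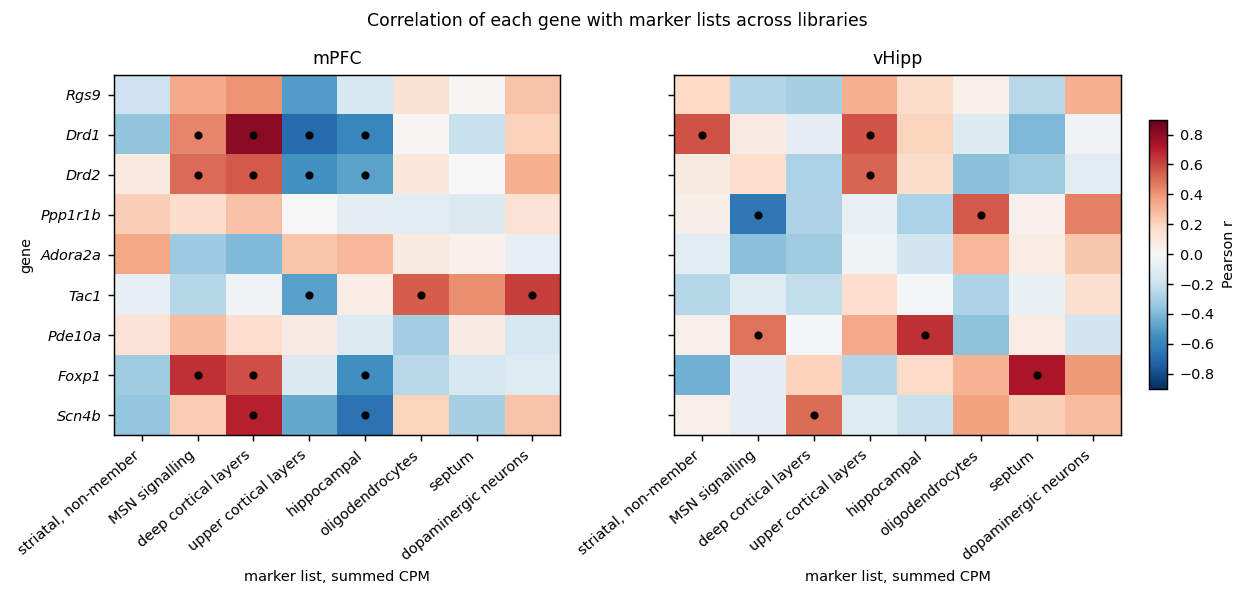
Pearson r of each striatal marker (rows) with the summed CPM of marker lists (columns) across libraries, group means removed, in the mPFC and the vHipp. Dots mark an adjusted p under 0.05. In the mPFC the column of deep layers holds dots for Drd1, Drd2, Foxp1 and Scn4b, and the row of Rgs9 holds none in either region.

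To see whether the level of a marker was a property of the mouse or of the punch, the 39 mice with both regions were compared. Rgs9 was shared between the regions. Its r was 0.67 (permutation p = 1e-05; rho 0.69, p = 1e-05; adjusted p = 0.000288), and it fell to 0.61 without the 2 mice farthest from the median in the mPFC. Mouse 17 had 19.9 CPM in the mPFC and 18.6 in the vHipp, mouse 11 had 16.7 and 16.1, and mouse 34 had 21.9 and 13.7. At the low end, mouse 4 had 6.46 and 4.80 CPM, and mouse 27 had 6.74 and 4.05 CPM. The value held within each group, between 0.54 and 0.76, and within each of 5 blocks of consecutive library numbers, between 0.48 and 0.88.

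No other striatal marker passed. Drd1 had an r of 0.32 (permutation p = 0.052, rho 0.29, p = 0.0879, adjusted p = 0.176), Pde10a of 0.29, Scn4b of 0.22 and Adora2a of 0.16. Ppp1r1b (0.04) and Foxp1 (-0.02) were near 0, and Tac1 (-0.13) and Drd2 (-0.24) were negative. A high Drd2 level in one region of a mouse therefore did not go with a high level in the other, although Drd2 moved with Rgs9 inside each region. The difference between the r of Rgs9 and those of the other markers was not tested.

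Sharing between regions was common among genes. Of 27874 genes tested in both regions, 18.7% passed with a positive r, the median r was 0.17, and 3.92% had an r at least as high as Rgs9. All 9 markers had a mean above 1 CPM in both regions, and among the 15704 genes with a mean of at least 1 CPM the median r was 0.29 and 4704 passed with a positive r. The libraries of each mouse also carry consecutive library numbers, so mouse and library number cannot be told apart, and the labels do not say what the number follows. Between neighboring libraries of different mice the r of Rgs9 was 0.08 over 37 pairs. That of Drd1 was 0.35, and the remaining markers lay between -0.23 for Foxp1 and 0.19 for Drd2. These values were not tested.

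**Figure D4:**
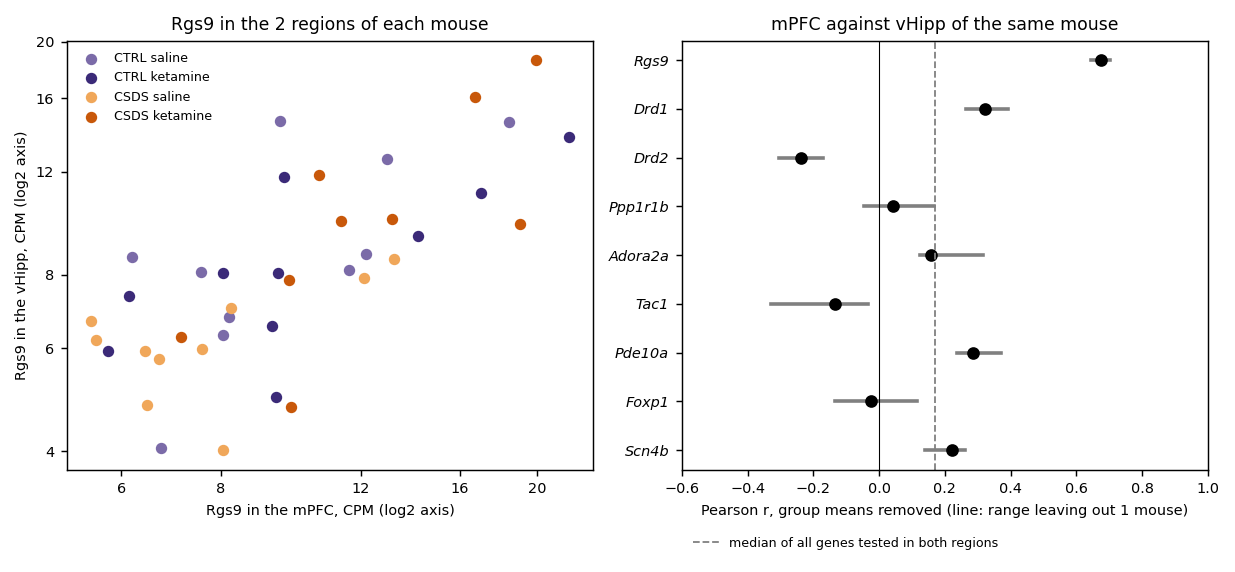
Left, CPM of Rgs9 in the mPFC (x) and the vHipp (y) of each of 39 mice, log2 axes, by group. Right, Pearson r between the regions for each marker (dot), its range with 1 mouse left out (line) and the median of all genes tested in both regions (dashed), which is lower than the 0.29 of genes with at least 1 CPM. Rgs9 stands at 0.67, and the other 8 markers lie between -0.24 and 0.32.

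Turning to stress and ketamine, no gene passed an adjusted p of 0.05 in any of the 5 comparisons of either region by edgeR's quasi-likelihood test, and none did with DESeq2 (823 to 1681 genes per comparison had an unadjusted p under 0.05 with edgeR, and 523 to 1337 with DESeq2). The markers are therefore described with unadjusted p-values from that test, set against the share of all genes under 0.05. In the mPFC, stress with saline reached it in 0 of 9 markers (2.94% of all genes), stress with ketamine in 2 (5.8%), ketamine in CTRL mice in 0 (3.64%), ketamine in CSDS mice in 1 (4.32%) and the interaction in 2 (5.31%). In the vHipp these counts were 3 (5.57%), 2 (5.42%), 0 (2.88%), 1 (2.9%) and 1 (2.84%). Of the 13 further striatal genes, between 0 and 2 reached it in each comparison, and Isl1, at or near 0 counts in most libraries, was among them wherever any did.

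Rgs9 was the one marker below 0.05 for ketamine in CSDS mice, and was so in both regions. In the mPFC, CSDS mice had a median of 7.14 CPM with saline (lowest 5.50, highest 13.2) and of 11.3 CPM with ketamine (lowest 7.13, highest 19.9, n = 9). In the vHipp, they had 6.08 CPM with saline (lowest 4.02, highest 8.51) and 9.84 CPM with ketamine (lowest 4.75, highest 18.6). The groups overlapped in both regions. In CTRL mice the medians were 8.84 and 9.41 CPM in the mPFC and 8.36 and 8.05 CPM in the vHipp, for saline and ketamine.

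The LFC of Rgs9 for ketamine in CSDS mice was 0.72 in the mPFC (SE 0.22, unadjusted p = 0.0024, adjusted p = 0.993) and 0.70 in the vHipp (SE 0.21, unadjusted p = 0.00163, adjusted p = 0.9999). It ranked 42nd and 23rd among all genes by p. Rgs9 was chosen because the study of these same mice shows it, so its p-values and ranks are not independent of that choice. The interaction of stress and ketamine had an LFC of 0.60 in the mPFC (SE 0.31, unadjusted p = 0.0589) and 0.80 in the vHipp (SE 0.29, unadjusted p = 0.00881). Stress with saline gave an LFC of -0.35 in the mPFC (SE 0.22, unadjusted p = 0.115) and of -0.54 in the vHipp (SE 0.21, unadjusted p = 0.0123), whereas stress with ketamine gave 0.25 (SE 0.22) and 0.26 (SE 0.20), with unadjusted p of 0.262 and 0.216. Since both regions come from the same mice and Rgs9 was shared between them, the vHipp values are not an independent repeat. Without mouse 17 the ketamine value in the vHipp was 0.56 (SE 0.21), and that for stress with ketamine was 0.13 (SE 0.20).

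The dopamine receptors, which moved with Rgs9 across libraries, did not reach 0.05 for ketamine in CSDS mice in this fit, and the difference between their LFCs and that of Rgs9 was not tested. Drd2 in the mPFC was close to it (unadjusted p = 0.0625) and reached it, at a lower level with ketamine, with the deep layer list held (LFC -0.62, SE 0.25, unadjusted p = 0.017), with the library block (unadjusted p = 0.0267) and with DESeq2 (unadjusted p = 0.0495). For ketamine in CSDS mice, Drd1 had an LFC of -0.14 (SE 0.20) in the mPFC and -0.16 (SE 0.17) in the vHipp, and Drd2 had -0.56 (SE 0.29) and 0.00 (SE 0.30). The other 6 markers lay between -0.17 and 0.20. With the striatal list as a covariate, the LFC of Rgs9 was 0.66 (SE 0.22) in the mPFC and 0.69 (SE 0.21) in the vHipp. With the deep layer list it was 0.67 (SE 0.20) and 0.70 (SE 0.20). With the sum of Drd1, Drd2 and Adora2a held constant it was larger, at 0.90 (SE 0.19) and 0.76 (SE 0.17). For stress with ketamine, the striatal list moved the LFC of Rgs9 from 0.25 to 0.27 in the mPFC and from 0.26 to 0.27 in the vHipp, and the 3 receptors moved it to 0.48 and 0.42. None of these fits gave an adjusted p under 0.05.

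**Figure D5:**
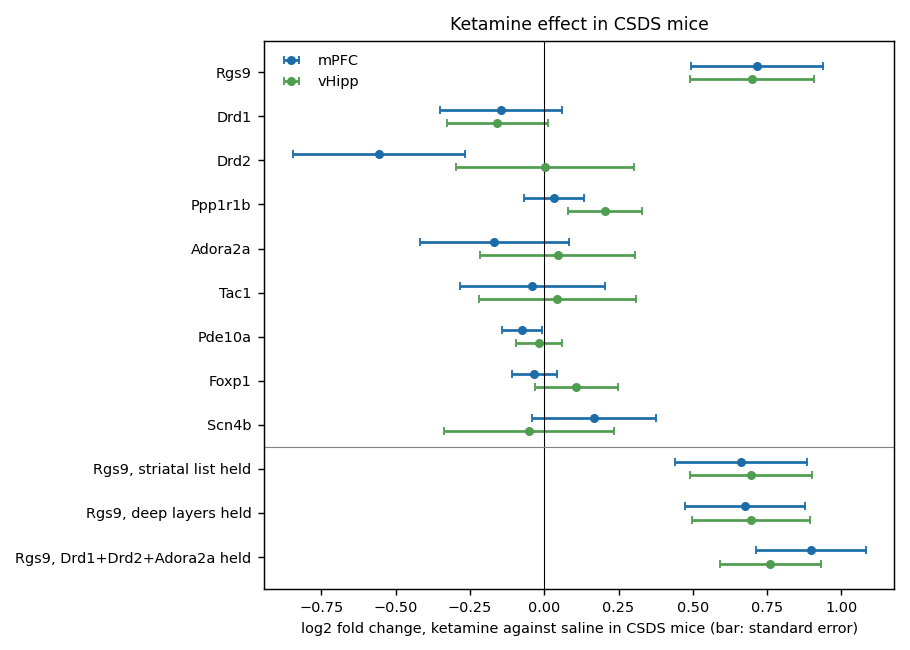
Log2 fold change (x, with standard error) of ketamine against saline in CSDS mice for each striatal marker, and below the line for Rgs9 with a marker list or 3 receptors held constant, in the mPFC and the vHipp. Rgs9 lies near 0.7 in both regions with either list held, and Drd1 lies below 0 in both.

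Drd2 reached 0.05 in the mPFC for stress with ketamine and for the interaction. Ketamine-treated CSDS mice had a median of 1.03 CPM (lowest 0.496, highest 2.23) against 1.60 CPM (lowest 0.83, highest 4.67) in ketamine-treated CTRL mice, an LFC of -0.70 (SE 0.29, unadjusted p = 0.0195). The interaction was -1.01 (SE 0.40, unadjusted p = 0.015, adjusted p = 0.898). Mouse 40, a ketamine-treated CTRL mouse, held the highest Adora2a (4.57 CPM), the highest Ppp1r1b (59.9 CPM) and the second highest Drd2 (3.46 CPM) of the mPFC, with Rgs9 at 9.44 CPM, the median of that region. Without its library, the value of Drd2 for stress with ketamine was -0.57 (SE 0.29) and no longer reached 0.05 (unadjusted p = 0.0578). Pde10a had -0.17 for stress with ketamine (SE 0.07, unadjusted p = 0.0168) and -0.16 (SE 0.07, unadjusted p = 0.0262) without mouse 40. Its interaction of -0.20 (SE 0.09, unadjusted p = 0.0428) was -0.19 (SE 0.10) without that library and no longer reached 0.05 (unadjusted p = 0.0557). Each of the mPFC counts of 2 markers was therefore 1 without mouse 40.

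In the vHipp, Adora2a and Ppp1r1b reached 0.05 for stress under both treatments. The medians of Adora2a were 1.15 CPM in CTRL and 1.66 CPM in CSDS mice with saline, but 1.15 and 1.16 CPM with ketamine, where a few CSDS libraries were high. Adora2a had an LFC of 0.61 with saline (SE 0.27, unadjusted p = 0.0266) and of 0.75 with ketamine (SE 0.27, unadjusted p = 0.00764). Its highest library among ketamine-treated CSDS mice was that of mouse 17, at 5.05 CPM, and the next was at 2.59 CPM. Without mouse 17 the value with ketamine was 0.41 (SE 0.24) and no longer reached 0.05 (unadjusted p = 0.0893). In the same fit Drd1 did reach it, with an LFC of -0.42 (SE 0.17, unadjusted p = 0.0181) against -0.32 (unadjusted p = 0.0614) with all libraries. Ppp1r1b had medians of 30.4 and 37.5 CPM with saline and of 33.8 and 39.4 CPM with ketamine, in CTRL and CSDS mice. Its LFC was 0.28 (SE 0.13, unadjusted p = 0.0329) and 0.35 (SE 0.13, unadjusted p = 0.00849). With saline, its levels ran from 26.5 to 37.1 CPM in CTRL mice and from 26.8 to 46.5 CPM in CSDS mice. With ketamine they ran from 28.3 to 43.6 CPM and from 28.0 to 70.5 CPM, so the ranges overlapped under both treatments.

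In the vHipp, 2 libraries were high in transcripts of the choroid plexus. The 8 genes of that list summed to between 14.5 and 33.4 CPM in the libraries of 3 groups, and to between 18.1 and 706 CPM in those of saline-treated CSDS mice, where mice 9 and 13 were highest. The group medians were 23.8 CPM for CTRL saline, 22.5 for CTRL ketamine, 27.0 for CSDS saline and 21.6 for CSDS ketamine, and none of the 8 genes passed an adjusted p of 0.05 by edgeR (4 had an unadjusted p under 0.05 for stress with saline, and 7 for ketamine in CSDS mice). Without this pair the LFC for stress with saline was 0.52 (SE 0.29, unadjusted p = 0.084) for Adora2a and 0.25 (SE 0.14, unadjusted p = 0.083) for Ppp1r1b, so both calls were lost. It was -0.47 (SE 0.23, unadjusted p = 0.043) for Rgs9, and that of Rgs9 for ketamine in CSDS mice was 0.63 (SE 0.23).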

How the data were processed

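RNA-seq counts per gene, deposited by the authors as raw counts on GRCm38 without normalization, were used for 79 libraries of stranded poly(A) RNA from punches with an RNA integrity number of at least 8. Demultiplexing used bcl2fastq 2.20.0.422 per the labels, and the aligner and counter are not given in the sources used here. Groups came from the labels. The study's covariate, the social box, was not used here because the labels do not give it.

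Genes with more than 10 counts in total and detected in more than 3 libraries were tested with edgeR 4.0.16 (TMM, quasi-likelihood, all groups of a region in one fit, Benjamini-Hochberg adjustment) in R 4.3.3, with standard errors taken as the fold change over the square root of F, after checks on simulated data. DESeq2 1.42.0 was an alternative. Correlations used log2 CPM with a prior count of 2 after removal of group means, and 100000 two-sided permutations within groups. Covariates were the log2 summed CPM of a list. The genes named were the 9 markers, the 5 genes per region most like Rgs9 with a mean of at least 1 CPM, and at most the 4 highest genes of a list plus those past the threshold. The values of 1 gene of the lists are not reported here. The markers and the lists were chosen with earlier results of these data known. Comparisons with lists, partial correlations, values within groups, the library block between regions, the fits without mice 17, 40, 9 and 13, and the covariate fits for ketamine in CSDS mice were chosen after seeing the data.

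Mice were separate animals, but cage mates could not be identified, so p-values treat all mice as independent. In the study, all mice of a housing group shared one stress condition. The stress comparisons therefore rest on fewer independent units than mice, and stress cannot be told apart from housing group. Libraries of both regions with one number came from one mouse per the labels. Over 15261 genes, deviations of the 2 libraries of a mouse correlated at a median r of 0.25 (-0.03 to 0.63) in 39 mice, against -0.004 for different mice. Reads of overlapping genes on the opposite strand (Gm17087 for Pde10a) could be split wrongly if the counting ignored strand, which is not stated. Intervals by counting alone are not given, since replicate spread includes them.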

Additional observations from a re-analysis of the deposited data

Results flagged for a closer look

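Single libraries stood apart from the rest of their group in 9 of 72 combinations of marker, region and group by Dixon's test at the 95% level, which chance alone gives in about 1 of 20 (3.6 here). Mouse 2, a saline-treated CSDS mouse, stood apart for Tac1 in both regions, with 20.1 CPM in the mPFC (next 11.3) and 8.74 CPM in the vHipp (next 4.88). Mouse 4 of the same group had 57.6 CPM of Ppp1r1b in the mPFC (next 46.03) and 90.5 CPM of Foxp1 in the vHipp (next 60.6). Adora2a was 4.57 CPM in the mPFC of mouse 40 (CTRL ketamine, next 2.23) and 5.05 CPM in the vHipp of mouse 17 (CSDS ketamine, next 2.59). Drd1 in the vHipp was 8.94 CPM in mouse 34 (CTRL ketamine, next 6.48) and 7.65 CPM in mouse 38 (CTRL saline, next 5.90). Pde10a was low in the vHipp of mouse 24 (CTRL saline), at 61.4 CPM, where the next library had 83.5 CPM. No library stood apart in this way for Rgs9.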

How the results depend on the processing

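Of the alternative values for correlations, 19 newly passed an unadjusted p of 0.05, 17 no longer did, and the others kept their side of it. Some values that did not pass changed sign. With 1 library left out, Rgs9 with Adora2a in the vHipp ran from -0.15 to 0.12. Between regions, Ppp1r1b ran from -0.04 to 0.17 and Foxp1 from -0.13 to 0.11 with 1 mouse left out. For fold changes judged by the adjusted p, 198 kept their call and 3 lost it, all for Scn4b between regions. By unadjusted p, Drd2 and Pde10a in the mPFC each lost a call without mouse 40, Adora2a in the vHipp lost one without mouse 17 and, with Ppp1r1b, another without mice 9 and 13. Drd1 in the vHipp, at 0.0614 for stress with ketamine, reached 0.05 without mouse 17 (0.0181), with the library block (0.0443) and with the striatal list held (0.0253). Drd2 in the mPFC, at 0.0625 for ketamine in CSDS mice, did so with DESeq2 (0.0495), the library block (0.0267) and the deep layer list held (0.017), and the Rgs9 interaction in the mPFC with the library block (0.049). With the mouse as a replicate block, 15437 genes differed between regions against 15415 without it. Scn4b was at -0.23 (adjusted p = 0.103) with the block, -0.30 with DESeq2 (adjusted p = 0.0514) and -0.30 without the filter (adjusted p = 0.0553). The block changed no other call of a marker. Without TMM factors, Rgs9 and Ppp1r1b in the vHipp had an r of 0.36. Without removal of group means, the r between regions was 0.36 for Drd1 and 0.35 for Pde10a, and with the library block removed as well it was -0.32 for Drd2 and 0.34 for Pde10a. Without the 2 farthest libraries or mice, r was -0.33 for Rgs9 with Adora2a in the mPFC, and between regions -0.46 for Tac1 and 0.41 for Pde10a. With 1 library left out, Rgs9 with Adora2a in the mPFC ran from -0.39 to -0.30 and Rgs9 with Tac1 in the vHipp from 0.27 to 0.45. With 1 mouse left out, r between regions ran from 0.26 to 0.39 for Drd1, from 0.24 to 0.37 for Pde10a and from -0.33 to -0.03 for Tac1. The cause of these changes was not tested. Low counts limit single values of Drd2 and Adora2a.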
